A study of Mus musculus with 11 samples.

Results

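Input chromatin is the sheared DNA taken from a chromatin preparation before immunoprecipitation, and it was compared here between MEL cells and ES-EP. The comparison rests on the 3 input libraries of the 11 libraries in the series, 1 from MEL cells and 2 from ES-EP, and the other 8 are PU.1 ChIP libraries. MEL cells are a murine erythroleukemia line, that is, leukemic erythroblasts. The line is DS19 in the methods of the study and clone 4 in the labels, and it stably carries a transgene of Gata-1 joined to the ligand-binding domain of the estrogen receptor (ER), so that every MEL value below comes from 1 clone, which was grown in DMEM with serum and puromycin. ES-EP are erythroid progenitors derived from embryonic stem cells and kept in StemPro34 medium with Epogen, hIGF-1, dexamethasone and murine SCF. The study mapped PU.1, an Ets family transcription factor, in both cell types, and the inputs served as its controls. Reads of all 3 inputs were counted in 1 Mb bins of the mm9 autosomes, in windows of 100 kb and 10 kb, and in 500 bp around the start site of each of 22,359 protein-coding genes, and depth was taken out by dividing by the total of each library.

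Input DNA is not selected for any protein, so that the reads in a long stretch of genome follow the number of copies of that stretch in the cells. Cancer lines often carry extra or missing copies of chromosome segments, and short segments in many copies (amplicons) are a known way in which a tumour comes to carry more of an oncogene. At the scale of a promoter, input is also known to hold more reads where cross-linked chromatin is open and shears readily, above all at start sites of active, GC-rich genes.

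The MEL input held 4,278,560 reads on the chromosomes, and the ES-EP inputs held 2,437,650 and 5,051,235. Reads were 28 bases long in the MEL input and 27 in both ES-EP inputs, so that cell type and read length cannot be told apart there. The file of ES-EP input 2 held 0 unplaced and 0 mitochondrial reads. That of ES-EP input 1 held 27,458 and 3860, and that of the MEL input 8172 and 3656. The effect of these differences was not tested. A single MEL input gives no replicate test. Ratios are therefore given against each ES-EP library with 95% exact counting intervals, which cover counting error only, and they compare these libraries and not repeated cultures. The ES-EP inputs against each other served as the yardstick. The labels do not say whether they come from 1 chromatin preparation or 2, so that this spread may be technical. They differed by more than sampling noise over the bins (chi-square of 8.74 per degree of freedom, 2378 degrees of freedom). Their log2 ratio correlated with the GC content of the bins (Pearson r = 0.875 over 2379 bins), and that of MEL cells to ES-EP did so less (r = 0.395). Windows of 10 kb with more than 5 times the median reads of the summed inputs, called pile-ups below, numbered 133. They include satellite-like repeats but also windows of the strongest MEL amplicons, and they took 0.999% of the MEL input reads and 3.43% of the ES-EP input reads. The replicated libraries of the series, 2 PU.1 ChIP preparations of each cell type, were used as a second measurement of the same bins. The study states duplicate chromatin preparations. The letters A and B of the library titles were taken to mark them, which the titles do not say. In both cell types the ChIP files numbered 1 held unplaced and mitochondrial reads and those numbered 2 held 0, so that the numbers go with a difference between files.

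The genome of MEL cells and that of ES-EP differed in read density over long stretches. Of 2379 bins, 775 (32.6%) lay at 1.2-fold or more from both ES-EP inputs in the same direction, of which 277 (11.6%) were higher and 498 (20.9%) were lower in MEL cells. The count was 870 without ES-EP input 1 and 1224 without ES-EP input 2. Between the ES-EP inputs, 241 bins (10.1%) differed by that fold. After a correction of each library for GC content, 7 bins (0.294%) differed between the ES-EP inputs and 565 (23.7%) between MEL cells and ES-EP, 334 higher and 231 lower. The excess of lower bins was thus not kept by the correction, nor by scaling to the median bin, which gave 371 higher and 327 lower. The median bin had a log2 ratio of -0.08 under scaling by total reads, so that ratios below are relative to that shift.

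The PU.1 ChIP libraries gave a similar picture with replicates for the higher bins and less so for the lower ones. The study took its input DNA from chromatin preparations before ChIP. The inputs and the ChIP libraries may thus share preparations. Over the same bins, 658 (27.7%) differed between the 2 MEL and the 2 ES-EP preparations (limma moderated test, Benjamini-Hochberg adjusted p below 0.05), 347 (14.6%) higher and 311 (13.1%) lower in MEL cells. Windows that were pile-ups in the inputs or in the ChIP reads were left out, 1152 in all. Of these, 47 lay in the chromosome 12 region described below, so that its ChIP bins are trimmed. PU.1 binding outside the windows left out still enters the ChIP bins, and its share was not tested. The standard error was 0.091 on the log2 scale in every bin, because it was pooled over bins. The MEL preparations lay further apart in some bins, such as those of Stk11 (log2 CPM of 9.54 and 10.12) and Epor (9.77 and 10.11). There the p-value does not measure the spread of the bin itself. Scaling to the median bin gave 372 higher and 190 lower. Of the 277 bins that were higher in the MEL input, 246 (88.8%) were higher in the MEL ChIP libraries and 0 were lower. Of the 498 bins that were lower in the MEL input, 242 (48.6%) were lower in ChIP and 1 was higher. The bins that also passed after GC correction of the inputs did so more often, 240 of 245 (98.0%) on the higher side and 178 of 247 (72.1%) on the lower side. Across the 2379 bins, which share the base composition of the genome, the log2 ratios of input and ChIP correlated at r = 0.844. The ChIP ratio itself was nearly unrelated to GC content (r = 0.0683).

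**Figure D1:**
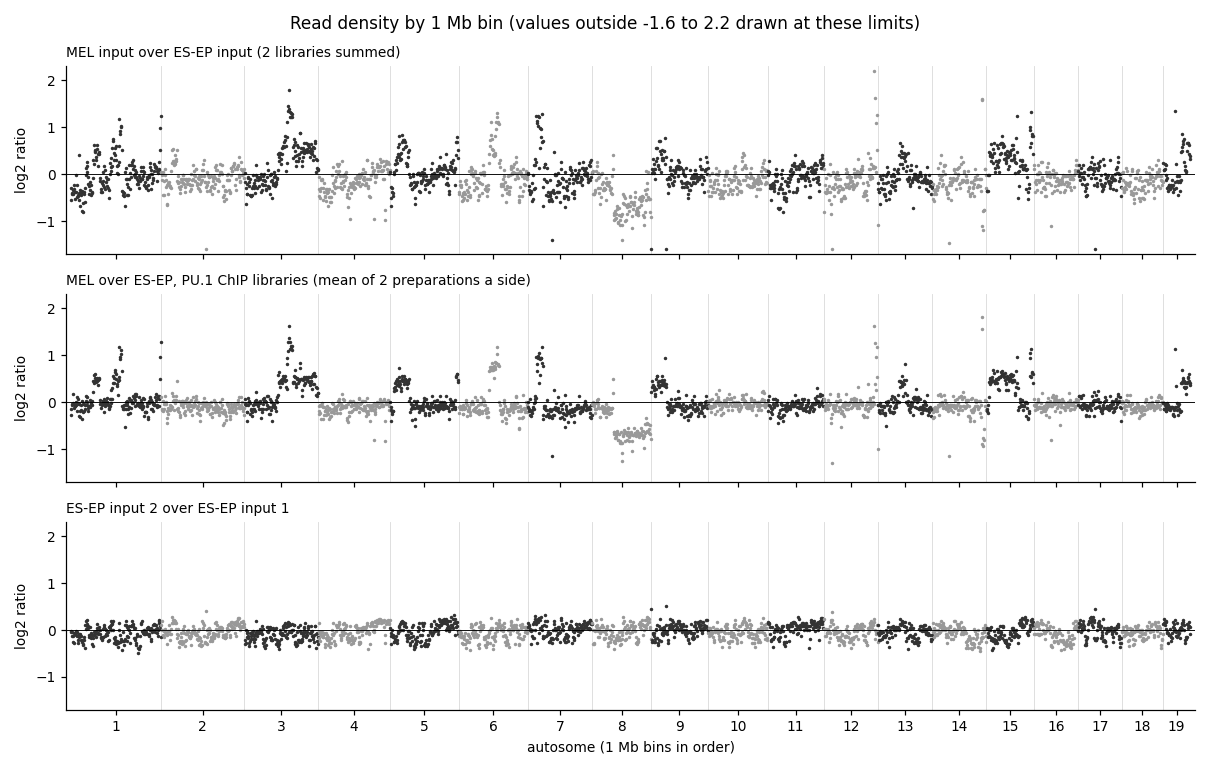
Each point is a 1 Mb bin, in order along the autosomes on the horizontal axis, and the vertical axes give log2 ratios of depth-scaled reads for MEL input over ES-EP input, for MEL over ES-EP PU.1 ChIP, and for ES-EP input 2 over input 1. The first and the second of these share blocks that stand above 0 on chromosomes 3, 5, 7 and 15 and a block below 0 on distal chromosome 8, and the ES-EP inputs show no such blocks against each other.

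Whole chromosomes differed less than segments did. Only chromosomes 3, 8 and 15 of the 19 autosomes passed 1.2-fold against both ES-EP inputs. Chromosome 3 held 313,329 reads in the MEL input and 142,218 and 279,778 in the ES-EP inputs, a ratio of 1.3 (1.29 to 1.31). Chromosome 15 held 221,440 reads against 98,134 and 201,574, a ratio of 1.29 (1.29 to 1.3). Chromosome 8 was the one that was lower in MEL cells, with 201,981 reads against 160,465 and 335,420 and a ratio of 0.713 (0.709 to 0.717). The ES-EP inputs differed from each other by at most 1.08-fold in any autosome. None of the 3 was uniform along its length, as 62 of the 157 bins of chromosome 3, 45 of the 100 bins of chromosome 15 and 92 of the 125 bins of chromosome 8 were past the fold in the direction of the chromosome.

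Dividing each autosome into stretches of even ratio gave 58 segments, and in 27 of them the mean log2 ratio over the bins was past 1.2-fold against each ES-EP input separately. Just outside this rule lay chr1:87000001-107000000 and chr5:3000001-14000000, at 1.24 and 0.817 against the ES-EP inputs together. The 19 segments that were higher in MEL cells covered 333 bins (14.0%) with 2784 protein-coding genes and had mean ratios between 1.26 and 2.55. The 8 that were lower covered 173 bins (7.27%) with 1156 protein-coding genes. In the ChIP libraries, 313 of the 333 bins in the higher segments (94.0%) passed the limma test in the same direction, and all 19 segments lay above 1 in every pairing of a MEL with an ES-EP preparation. In the lower segments this held for 102 of 173 bins (59.0%) and for 4 of 8 segments.

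The largest blocks of higher density lay on chromosomes 3, 15 and 5. On chromosome 3, chr3:74000001-94000000 had a mean ratio of 1.40, the neighbouring chr3:94000001-105000000 had 2.52, and the rest of the chromosome from 105000001 had 1.39, so that the middle block stood out as a step within a raised stretch. The first 71 bins of the chromosome were not raised, at 0.884. All 11 bins of the middle block passed in ChIP. Relative to the median bin of its own library, that block was at 2.95 in the MEL input and at 2.57 and 2.70 in the MEL ChIP preparations, and at 1.11 and 1.21 in the ES-EP inputs. On chromosome 15, chr15:8000001-69000000 had a mean ratio of 1.34, with 59 of 61 bins passing in ChIP, and chr15:94000001-103000000 had 1.77, with 9 of 9. On chromosome 5, chr5:14000001-46000000 had 1.37, with 31 of 31. A stretch of chromosome 7, chr7:26000001-48000000, had a mean ratio of 1.91, with all 14 of the bins that could be tested passing. The other higher segments lay on chromosomes 1, 5, 6, 9, 12, 13, 14 and 19, and the highest of them was chr12:112000001-115000000 at 2.55. In a few segments the ES-EP libraries too stood away from the median bin of their own library. The chromosome 7 stretch was at 1.22 in the MEL input and at 0.551 and 0.612 in the ES-EP inputs, and chr6:82000001-89000000, with a mean ratio of 2.18, was at 1.66 against 0.692 and 0.741. With GC correction these levels were 0.826 against 0.447 and 0.448 on chromosome 7 and 1.10 against 0.556 and 0.557 on chromosome 6. So corrected, chr1:194000001-197000000 was at 1.06 in the MEL input and at 0.607 and 0.568 in the ES-EP inputs. For chr6:67000001-82000000 the values were 0.801 against 0.474 and 0.475. Which cell type departs from its normal copy number in these segments was not tested.

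Distal chromosome 8 was the longest segment that was lower in MEL cells. chr8:50000001-131738871 had a mean ratio of 0.615, and all 80 of its bins passed in ChIP, where the pairs of preparations gave ratios between 0.605 and 0.650. Relative to the median bin of its own library, this stretch was at 0.986 in the MEL input and at 0.944 and 0.935 in the MEL ChIP preparations. It was at 1.51 and 1.55 in the ES-EP inputs and at 1.47 and 1.55 in the ES-EP ChIP preparations. The libraries that stood away from the rest of their own genome were thus those of ES-EP, in all 4 cases, and the MEL libraries lay near 1. The proximal part, chr8:3000001-50000000, was at 0.824 in the MEL input and at 0.95 and 0.98 in the ES-EP inputs, so that the step lay within the chromosome in ES-EP. Gain of chromosome 8 is known as a recurrent change in cultured mouse embryonic stem cells.

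**Figure D2:**
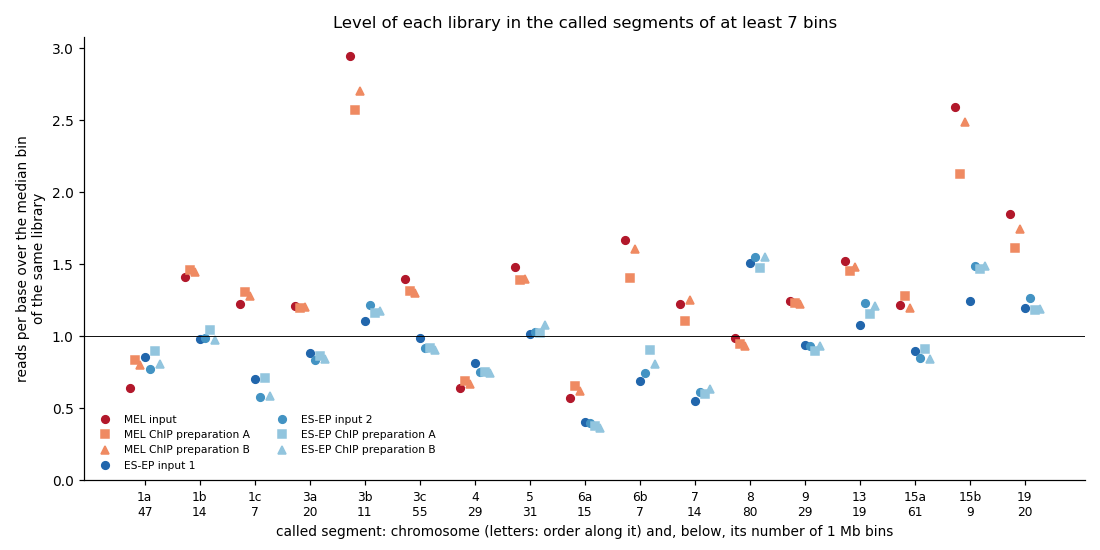
The vertical axis gives the reads per base of each library over the median bin of the same library, and the horizontal axis lists the segments of at least 7 bins past 1.2-fold by chromosome with their number of 1 Mb bins. Circles are inputs and squares and triangles are ChIP preparations A and B, in red for MEL cells and blue for ES-EP. On chromosome 8 the 4 ES-EP libraries sit between 1.47 and 1.55 and the 3 MEL libraries near 1, whereas in the middle block of chromosome 3 it is the 3 MEL libraries, between 2.57 and 2.95, that stand apart.

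The other lower segments were of unequal weight. chr14:116000001-121000000 had a mean ratio of 0.528 and chr12:18000001-21000000 of 0.453, and all 5 and all 3 of their bins passed in ChIP. The chromosome 12 stretch held few reads in every library, 437 in the MEL input against 475 and 1188. Relative to the median bin of its own library it was at 0.107 in the MEL input and at 0.171 and 0.203 in the ES-EP inputs. On chromosome 1 the first 47 bins had a mean ratio of 0.803, but only 4 of them passed as lower in ChIP and 1 passed as higher, and the first 29 bins of chromosome 4 had 0.767 with 10 passing. After GC correction of the inputs, these stretches of chromosomes 1 and 4 had mean log2 ratios of -0.17 and -0.21 and were no longer past the fold. The 3 remaining segments, of 3 bins each on chromosomes 2 and 9, contain satellite-like pile-ups, and in ChIP 0 of their bins passed as lower, while 2 of chr9:3000001-6000000 and 1 of chr9:35000001-38000000 passed as higher.

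Genes that are known drivers of blood and other cancers were then placed on these segments. Of 53 oncogenes on the autosomes, 12 (22.6%) lay in a segment that was higher in MEL cells and 0 in a lower one. Of 49 tumour suppressors, 5 (10.2%) lay in a higher and 2 (4.08%) in a lower segment, which is distal chromosome 8, where the ES-EP libraries stood away from their own genome. Among all 21,418 autosomal protein-coding genes the shares were 13.0% and 5.4%. Neighbouring genes share a segment, so that these counts are fewer independent events than genes. Each gene was also measured over its body with 50 kb on each side. The median ratio was 1.11 for the oncogenes and 1.05 for the tumour suppressors.

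The 4 oncogenes with the highest ratios were Akt1, Jak2, Bcl2 and Mcl1. Akt1, a kinase downstream of PI3K that promotes survival, had 2058 MEL input reads against 220 and 506, a ratio of 4.96 (4.56 to 5.41), the highest of both lists. Jak2, the kinase that carries the signal of the erythropoietin receptor, had 1159 reads against 203 and 430, a ratio of 3.20 (2.91 to 3.54). Both MEL values were above those of either ES-EP library after scaling, and the bins of Akt1 and Jak2 were higher in ChIP by 1.63 and 1.13 on the log2 scale (limma, adjusted p = 9.1e-67 and 6.27e-33). Bcl2, which blocks apoptosis at the mitochondria, had 1604 reads against 299 and 698, a ratio of 2.82 (2.60 to 3.05). Mcl1, another member of the BCL2 family that protects cells from apoptosis, had 790 reads against 144 and 355, a ratio of 2.77 (2.47 to 3.11). The ChIP difference in their bins was 1.18 for Bcl2 and 1.10 for Mcl1 (adjusted p = 1.84e-35 and 4.58e-31). All 4 genes thus lay in stretches of more than 2-fold density in both kinds of library, although Jak2 lay in no segment past the fold, and its region is shorter than the 3 bins of the shortest segment.

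Further signalling genes and regulators had lower ratios above 1. Nras, a small GTPase of the MAP kinase pathway, lies in the middle block of chromosome 3 together with Mcl1 and had 535 MEL input reads against 133 and 303, a ratio of 2.15 (1.89 to 2.44). Akt2, the cyclin gene Ccne1 and the myeloid factor Cebpa lie in the chromosome 7 segment and had ratios of 2.52 (2.19 to 2.91), 2.16 (1.81 to 2.56) and 2.46 (2.05 to 2.98). Gata2, a transcription factor of hematopoietic progenitors, had 1.92 (1.67 to 2.22) and lies in chr6:82000001-89000000. For the genes of these segments on chromosomes 6 and 7 the ratio does not say which cell type departs, as given above. The neighbouring Ets family genes Fli1, a target of Friend virus integration, and Ets1 had 1.94 (1.75 to 2.16) and 1.89 (1.70 to 2.11), and the bin they share was higher in ChIP by 0.93 (adjusted p = 9.53e-23). Epor, the erythropoietin receptor, had 507 reads against 152 and 386, a ratio of 1.65 (1.46 to 1.87). The bins of Nras, Akt2, Ccne1, Cebpa, Gata2, Fli1, Ets1 and Epor all passed the limma test as higher, with log2 differences from 0.45 to 1.15.

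Myc, the growth-promoting transcription factor, lies in the long segment of chromosome 15. It had 377 MEL input reads against 118 and 280, a ratio of 1.66 (1.44 to 1.91), and its bin was higher in ChIP by 0.46 (adjusted p = 3.62e-06). The receptor kinase gene Flt3 had a ratio of 1.56 (1.40 to 1.74). Among tumour suppressors, Cebpa had the highest ratio, and Casp8, Tet2, Brca2 and Fbxw7 had 1.69, 1.65, 1.42 and 1.42. All 5 lie in higher segments, and their bins passed as higher in ChIP.

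Other genes with a known part in erythroleukemia or other leukemias did not pass in ChIP. Trp53, which encodes p53, had 315 MEL input reads against 175 and 447, a ratio of 0.886 (0.772 to 1.02). Cdkn2a, which encodes p16 and p19Arf, had 190 reads against 116 and 246, a ratio of 0.919 (0.767 to 1.10). Neither locus was empty, and their bins did not pass in ChIP (log2 differences of -0.13 and -0.10, adjusted p = 0.302 and 0.446). Sfpi1, which encodes PU.1 itself, had 582 reads against 212 and 526, a ratio of 1.38 (1.24 to 1.54), while its whole bin was at 1.07 in the inputs and gave a log2 difference of -0.14 in ChIP (adjusted p = 0.272). Myb and the receptor kinase gene Kit had ratios of 1.09 (0.960 to 1.24) and 0.848 (0.752 to 0.954), and their bins did not pass. Notch1 had 2.03 (1.84 to 2.26) over the gene and its flanks in the input, while its whole bin was at 1.42. That bin did not pass in ChIP (limma, log2 difference of 0.20, adjusted p = 0.0801).

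At the low end stood genes of distal chromosome 8 and a few whose wider bins were not past the fold. Klf1, the erythroid master factor, and the cadherin gene Cdh1 lie in the chromosome 8 segment, in which it was ES-EP that stood high, and had ratios of 0.725 (0.641 to 0.818) and 0.67 (0.593 to 0.764), and their bins were lower in ChIP by 0.67 and 0.69 on the log2 scale (adjusted p = 4.49e-12 and 1.05e-12). The lowest ratio was that of Nfe2, an erythroid factor at the end of chromosome 15, with 151 MEL input reads against 180 and 332 (0.516, 0.428 to 0.620), and no tested bin holds it. Ezh2, Hoxa9 and Bmi1, genes of chromatin regulation and self-renewal, had ratios of 0.640, 0.641 and 0.662 over the gene and its flanks. Their 1 Mb bins had input ratios of 0.890, 0.861 and 0.882, which were not past the fold, and did not pass in ChIP either (adjusted p = 0.167, 0.118 and 0.292).

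**Figure D3:**
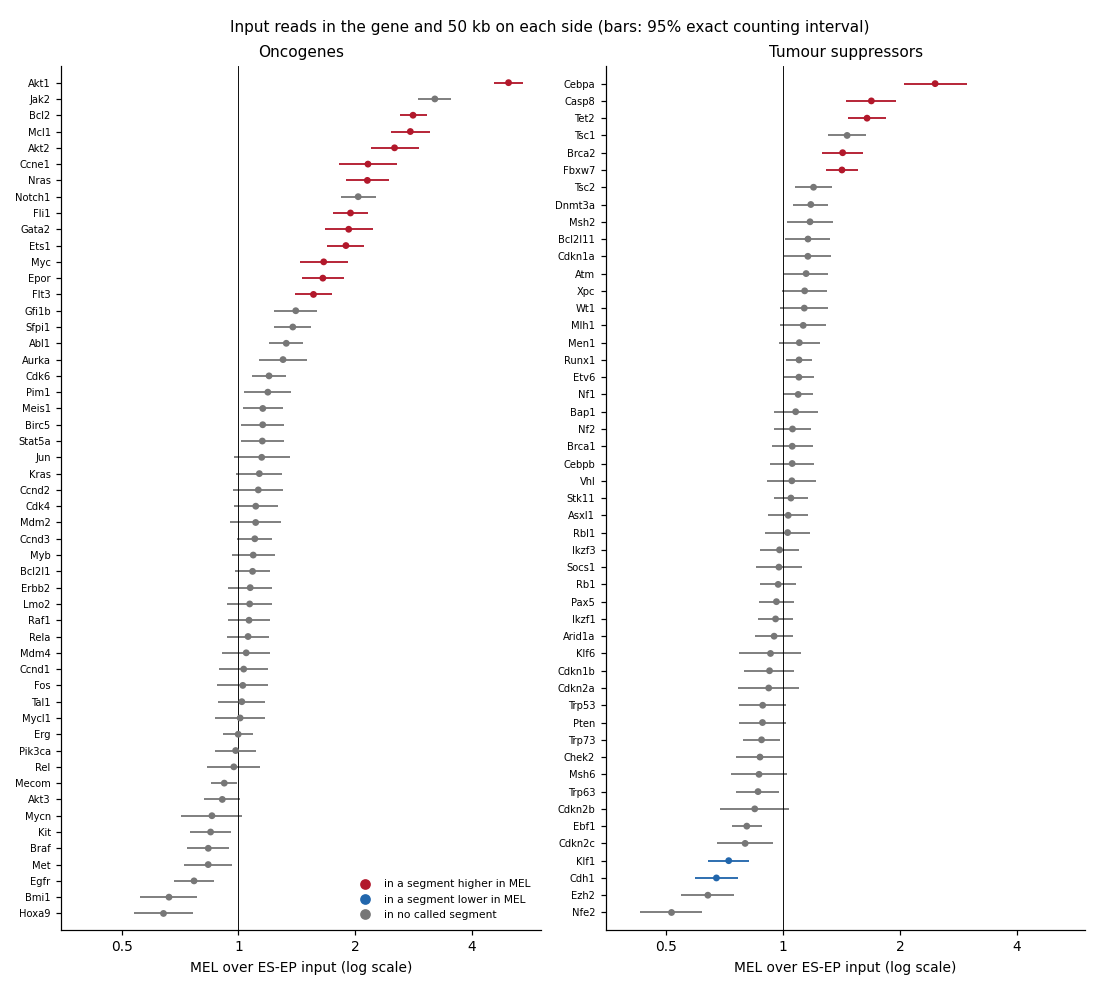
The horizontal axis gives the depth-scaled ratio of MEL input to ES-EP input over each gene with 50 kb on each side, on a log scale, with 95% exact counting intervals as bars and oncogenes and tumour suppressors in separate panels. Csf1r on chromosome 18, with a ratio of 0.961, is not drawn. Red marks genes in a segment that is higher in MEL cells, blue a lower one and grey neither. Akt1 at 4.96 and Jak2 at 3.20 lead the oncogenes, and Nfe2 at 0.516 is the lowest tumour suppressor.

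Windows of 100 kb showed differences that the bins average over. Of 23,978 windows, 49 (0.204%) were at least 3-fold higher in MEL cells than in each ES-EP input and 19 (0.0792%) at least 3-fold lower, and 5 (0.0209%) had a ratio below 0.1 against each ES-EP input separately. Of these 5, 4 were nearly without MEL reads, and the fifth, chr9:35100001-35200000, is a satellite-like pile-up with 1297 MEL reads against 10,196 and 30,725 and a ratio of 0.512 in ChIP. Between the ES-EP inputs, 0 windows passed any of these limits. No window was nearly without reads in ES-EP only. Joined windows at 3-fold or more formed amplicon-like regions on chromosomes 1, 3, 12, 14, 15 and 19, and windows of 10 kb were used to find their steps, a description added after the values had been seen.

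The region on chromosome 14 carried few genes. Its core, chr14:114680001-115460000, had 5608 MEL input reads against 606 and 1172, a ratio of 5.52 (5.23 to 5.83), and the pairs of ChIP preparations gave 5.30 to 6.5. The 550 kb before the core had a ratio of 2.27, and density fell away at its far end, as the next 80 kb had 46 reads against 72 and 156, a ratio of 0.353 (0.251 to 0.487), and the 960 kb after that had 0.513. The core held 0 protein-coding genes. Gpc5, which encodes a glypican of the cell surface, starts only beyond its end. The core did hold Mir17hg (chr14:115442101-115445949, plus strand), the host transcript of the miR-17-92 cluster of microRNAs, in its last 20 kb. Mir17hg was named after its values had been seen, because the rule for named genes covers protein-coding ones. With 50 kb on each side, which takes in sequence beyond the step, it had 820 MEL reads against 138 and 282, a ratio of 3.42 (3.03 to 3.85).

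The miR-17-92 cluster is known for its role in blood cancers and for targeting regulators of survival and the cell cycle. Its 6 mature microRNAs are shown because they are the only transcripts with a known growth-promoting role named here in that core. The sequences are from RefSeq (GRCm38.p6), with the seed (bases 2 to 8), which pairs with target transcripts, in capitals.
mmu-miR-17-5p: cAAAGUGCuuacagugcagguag
mmu-miR-20a-5p: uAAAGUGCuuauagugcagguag
mmu-miR-18a-5p: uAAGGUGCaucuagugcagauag
mmu-miR-19a-3p: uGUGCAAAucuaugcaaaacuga
mmu-miR-19b-3p: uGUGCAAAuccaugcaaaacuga
mmu-miR-92a-3p: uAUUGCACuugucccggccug
The 6 microRNAs share 4 seeds among them, as miR-17 and miR-20a have the same seed and so do miR-19a and miR-19b. Their hairpins lie between 115442893 and 115443728 of chromosome 14 in mm9, all on the plus strand and all inside the 5.52-fold step. The data measure DNA and not microRNA, so that they say nothing of the level of these molecules.

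The region with Akt1 on chromosome 12 was the longest unbroken run of windows at 3-fold or more, 14 in all, and its ratio went down in steps. Density changed from 1.12 over the 1010 kb before it to 7.98 (7.42 to 8.58) in chr12:113210001-113450000, where the MEL input had 4130 reads against 283 and 623. It went on at 5.66 (5.36 to 5.99) to 113880000 and at 3.82 (3.67 to 3.97) to 114590000. The joined windows, chr12:113200001-114600000, held 33 protein-coding genes, among them Akt1 in the 3.82-fold step, the apoptosis gene Siva1, the formin gene Inf2, the asparaginase gene Aspg and Pld4. The ChIP libraries gave 3.97 over the whole region against 4.87 in the input. A short stretch further along, chr12:114880001-114990000, was at 0.0562 (0.0288 to 0.0993), with 12 MEL reads against 137 and 237, and immunoglobulin heavy chain genes lie in this part of the chromosome.

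The remaining cores were shorter runs. On chromosome 15, chr15:68930001-69070000 had the highest ratio of any step, 8.31 (7.38 to 9.39), from 1558 reads against 110 and 218. It held 0 protein-coding genes, although Khdrbs3, which encodes an RNA-binding protein, reaches into the 100 kb windows around it, and the ratio behind it was 0.738. On chromosome 19, chr19:29290001-30170000 had 5829 reads against 1017 and 2223, a ratio of 3.15 (3.02 to 3.29), between flanks of 0.936 and 0.789. Its 15 protein-coding genes include Jak2, the immune checkpoint ligands Cd274 and Pdcd1lg2, and the cytokine gene Il33. On chromosome 3, chr3:97040001-97680000 had 4.05 (3.85 to 4.27) with Chd1l, Bcl9 lay just before it in a step of 2.72, and the Notch receptor gene Notch2 lay further along, at 2.80 (2.60 to 3.03) with 50 kb on each side. On chromosome 1 a step of 2.66 (2.51 to 2.81) took in Bcl2. The lowest ratio that any pair of ChIP preparations gave in these 4 cores was 2.44. Some regions at 3-fold or more in the input were below 3-fold in ChIP. Among them were chr19:29300001-29500000 with Jak2 at 2.74, chr3:97900001-98100000 with Notch2 at 2.69 and chr3:120800001-120900000 at 2.98. A pair of single windows that hold a pile-up fell furthest. chr1:20600001-20700000 in Pkhd1 had a ratio of 5.73 in the input and 0.790 in ChIP, and chr7:27400001-27500000 with Cyp2b23 had 5.83 and 1.80.

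**Figure D4:**
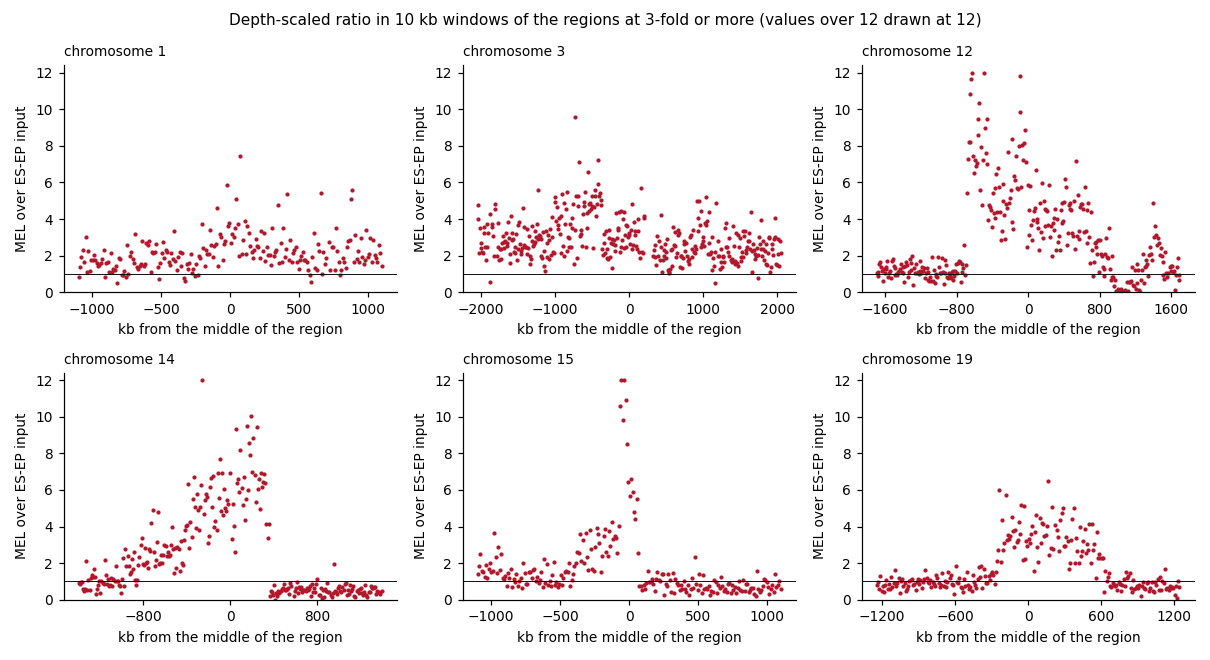
Points are 10 kb windows, the horizontal axis gives the distance in kb from the middle of each region and the vertical axis the depth-scaled ratio of MEL input to ES-EP input. The cores on chromosomes 12, 14, 15 and 19 reach 7.98, 5.52, 8.31 and 3.15 in their highest steps, and the steps beyond the core on chromosome 14 lie at 0.353 and 0.513.

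The windows nearly without MEL reads were few. chr4:121700001-121800000 had 2 MEL reads against 81 and 177, and chr7:67700001-67800000 had 6 against 96 and 148. The window chr14:10600001-10700000 inside Fhit, a large gene at a fragile site that is lost in many cancers, had 11 reads against 95 and 176 (0.0710, 0.0350 to 0.129). ChIP gave 0.0499, 0.0546 and 0.216 in these windows. Wwox, another large fragile-site gene, had a window at 0.314 (0.242 to 0.404) with 0.311 in ChIP, inside the distal chromosome 8 segment that was at 0.649 in the inputs and 0.627 in ChIP as a whole, and a window in Asap1 was at 0.179 (0.127 to 0.246) with 0.134. The remaining lower windows include satellite-like pile-ups, which were between 0.512 and 0.856 in ChIP, and clusters of related genes such as Klra6 and Klra4 or Naip5 and Naip6. The strains of mice behind the 2 cell types are not given in the sources used here, so that copy differences inherited from the mice and those acquired in the cells cannot be told apart. The ratios are also averages over cells, and a change in part of the cells cannot be told apart from a smaller one in all.

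Promoters were the second place where the inputs differed. Over all 22,359 start sites, the MEL input had 2.08 (2.06 to 2.10) times as many reads per kb within 500 bp as in flanks 2 to 5 kb away. The ES-EP inputs had 3.93 (3.90 to 3.97) and 4.79 (4.77 to 4.82). The flanks take copy number out of the comparison. The peak lay 50 bp downstream of the start site in all 3 libraries, at 2.36 in MEL cells and at 4.47 and 5.78 in ES-EP, once the 74 start sites near pile-ups were left out. All 3 inputs thus held more reads at start sites, and the excess was larger in both ES-EP libraries, which themselves differed. Against other windows of the genome with the same GC content, the levels were closer, 1.70 in the MEL input and 2.09 and 2.17 in the ES-EP inputs without the start sites near pile-ups. Unlike the flanks, this reference does not take copy number out.

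The difference followed the base composition of the promoters. In the group of lowest GC content the ratio over flanks was 1.14 for the MEL input, and the ES-EP inputs had 1.06 and 1.12. In the group of highest GC content it was 2.52 for the MEL input, and the ES-EP inputs had 7.55 and 9.88. Against other windows of the genome with the same GC content, this group stood at 2.08 in MEL cells and at 2.04 and 2.03 in ES-EP. No excess of ES-EP over MEL cells remained there against this reference. The reference leaves out only windows near protein-coding start sites, so that it may hold other open chromatin. In the next lower group, between 57.2% and 65% GC, ES-EP kept a higher level, 3.47 and 3.73 against 2.15. How much of the promoter signal comes from GC content in library preparation and how much from chromatin was not tested.

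**Figure D5:**
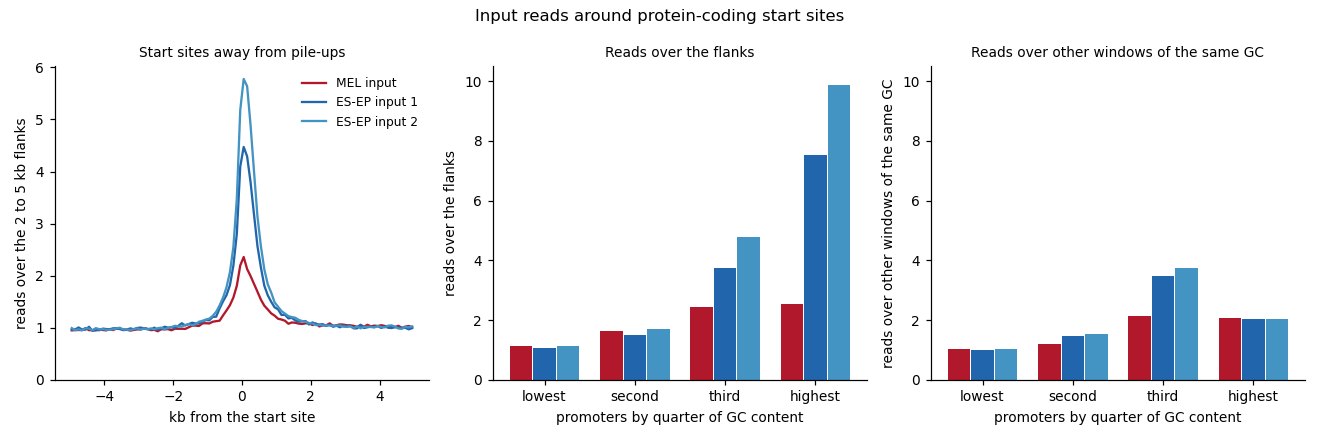
The first panel plots reads over the 2 to 5 kb flanks against distance from the start site in kb, and the others give reads in 500 bp for promoters grouped by GC content, over their flanks and over other windows of the same GC content, with MEL input in red and the ES-EP inputs in blue. The peaks reach 2.36, 4.47 and 5.78, and the gap in the highest GC group, 2.52 against 7.55 and 9.88, is absent once windows of the same GC content are the reference.

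Gene lists were summed because a single promoter holds few reads. Of 20 lists, the MEL value over flanks was below both ES-EP values in 13 and above both in 3. Genes of growth and of the basic machinery of the cell had levels well above 1 in all 3 libraries. The promoters of translation initiation factors were at 3.03 (2.63 to 3.47) in MEL cells and at 5.91 and 7.29 in ES-EP, those of the proteasome at 2.81 (2.36 to 3.33) against 4.53 and 6.12, and those of the DNA replication machinery at 2.5 (2.0 to 3.09) against 5.23 and 7.47. Tumour suppressors were at 1.99 (1.64 to 2.40) against 6.40 and 7.25, and oncogenes were at 2.17 (1.86 to 2.52) against 4.35 and 5.51. Over windows of the same GC content, a reference that does not take copy number out, the gap was absent or turned in some of these lists. Translation initiation factors were then at 2.88 in MEL cells against 2.96 and 2.80, cell cycle genes at 2.49 against 2.31 and 2.52, and oncogenes at 2.37 against 1.99 and 2.04. The flanks of the oncogenes held 1124 MEL reads against 455 and 1000, and those of the cell cycle genes 1177 against 489 and 1101. How much of these values comes from copy number was not tested. The gap stayed for the proteasome, at 2.48 against 4.35 and 4.38, and for the tumour suppressors, at 1.64 against 2.83 and 2.58.

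Lists of lineage genes were small and had few reads. Promoters of 41 erythroid genes were at 1.62 (1.31 to 1.99) in MEL cells and at 2.61 and 3.36 in ES-EP. Those of 14 pluripotency genes were at 0.761 (0.341 to 1.49) against 2.03 and 2.82, from only 9 MEL reads. Promoters of macrophage and granulocyte genes, which are poor in CpG, showed no excess over flanks in any library, at 0.884 (0.539 to 1.38) against 0.724 and 0.992, and nor did those of lymphocyte genes, at 0.679 (0.305 to 1.32) against 0.456 and 1.01. Olfactory receptor genes, which are silent outside the nose and have AT-rich promoters, were the only one among the 20 whose MEL interval lay above both ES-EP values, at 1.42 (1.32 to 1.52) against 1.01 and 1.21.

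Single promoters were called where at least 10 reads gave a ratio of 3-fold or more with a counting interval that excludes 1. Of 8516 promoters tested, 2948 (34.6%) were called, 107 (1.26%) higher and 2841 (33.4%) lower in MEL cells. The ES-EP inputs against each other gave 5.29% of 6717, with 340 higher and 15 lower in input 2. The limit of 10 reads was taken over all 3 inputs, most of whose reads are from ES-EP. Of the promoters tested, 421 had 0 MEL reads and 2 had 0 ES-EP reads, so that the share of lower calls depends in part on this limit. Without ES-EP input 2, the deeper library, 789 promoters were called between MEL cells and ES-EP. The limit of 10 reads then covered only the MEL input and ES-EP input 1, so that fewer promoters were tested. The 789 is therefore not a change in the share called. The promoters lower in MEL cells had a median GC content of 69.6% and those higher 58.8%, against 66.0% of those tested. When each promoter was scaled by its own flanks, 89 were higher and 3374 lower, of which 48 and 2317 were shared with the calls by total reads.

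The promoters higher in MEL cells often lay in bins of higher density in MEL cells. Of the 107, 54 (52.9% of those in tested bins) lay in bins at 1.2-fold or more, against 20.6% of the promoters tested. Pld4, which encodes an exonuclease of immune cells, had 12 MEL reads and 0 and 0 in ES-EP, at least 7.0-fold higher with a floor of 3 reads over both ES-EP inputs together, and the counting interval of the ratio began at 4.86. It lies in the chromosome 12 amplicon, in a window at 4.19. Aspg, in the same amplicon, had 16 reads against 0 and 1, a ratio of 28 (4.35 to 1174). Alg14, an enzyme of protein glycosylation in a raised stretch of chromosome 3, had 13 against 0 and 2. In windows closer to 1, BC055004 had 9 reads against 0 and 1 in a window at 1.04, and Ccnd3, a D-type cyclin of erythroid progenitors, had 8 against 1 and 1 in a window at 1.2. D2hgdh, which removes D-2-hydroxyglutarate, had 11 reads against 0 and 1 in a window at 2.07. Pyroxd2, Chordc1, Ggt5 and Olfr368 had 9 or 10 reads against 0 and 1 in windows at 2.21, 1.51, 1.38 and 1.74, and Was, on the X chromosome, had 10 against 0 and 0. With so few reads in ES-EP, the size of these ratios is known only within wide intervals.

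The promoters lowest in MEL cells were CpG-rich, and 4 of the 10 named lay on distal chromosome 8. Leaving aside the satellite-like Gm10720, Cdt1, which licenses DNA for replication, had 0 MEL reads against 17 and 31, at least 9.14-fold lower with a floor of 3 reads, and the counting interval of the ratio reached up to 0.140. Atmin, a cofactor of the ATM kinase, had 0 against 14 and 33, and Clcn3, a chloride and proton exchanger, had 0 against 17 and 29. Cdt1, Atmin, Clcn3 and Rfwd3 lie on chromosome 8, in windows between 0.534 and 0.795, which were lowered less than their promoters. The nearer flanks of Cdt1, 2 to 5 kb away, were lower too, with 5 MEL reads against 13 and 45. Cry1, a repressor of the circadian clock on chromosome 10, had 0 against 6 and 40, and the fucosyltransferase gene Fut8, Btbd8, Ndnl2 and Plcb1 also had 0 MEL reads. In all, 413 of the 2841 lower promoters had 0 MEL reads, which at this depth does not show that they are without signal.

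The 200 bases before the start site are shown for a pair of promoters from each side, because they make the difference in composition visible. They are from NCBI37/mm9, are written 5′ to 3′ on the strand of the gene, and have each CpG in capitals.
Cdt1, chr8:125091715-125091914, plus strand: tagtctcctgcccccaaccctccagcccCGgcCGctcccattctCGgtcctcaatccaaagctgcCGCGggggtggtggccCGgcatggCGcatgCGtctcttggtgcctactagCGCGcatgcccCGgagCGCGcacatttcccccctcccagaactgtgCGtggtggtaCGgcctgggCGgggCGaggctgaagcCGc
Cry1, chr10:84647800-84647999, minus strand: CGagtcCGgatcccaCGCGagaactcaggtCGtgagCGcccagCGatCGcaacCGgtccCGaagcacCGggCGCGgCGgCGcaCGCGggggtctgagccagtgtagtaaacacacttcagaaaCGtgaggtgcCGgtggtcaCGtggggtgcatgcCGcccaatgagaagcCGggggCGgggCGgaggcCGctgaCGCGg
Pld4, chr12:113998666-113998865, plus strand: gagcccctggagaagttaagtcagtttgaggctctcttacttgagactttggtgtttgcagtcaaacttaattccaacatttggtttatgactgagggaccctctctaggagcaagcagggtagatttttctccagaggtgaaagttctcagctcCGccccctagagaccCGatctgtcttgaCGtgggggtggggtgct
D2hgdh, chr1:95721617-95721816, plus strand: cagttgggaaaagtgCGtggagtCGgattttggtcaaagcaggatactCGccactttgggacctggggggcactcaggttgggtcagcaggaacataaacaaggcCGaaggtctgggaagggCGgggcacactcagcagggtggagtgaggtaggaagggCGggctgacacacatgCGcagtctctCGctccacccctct
The stretches of Cdt1 and Cry1 hold 18 and 27 CpG and 69.5% GC each. Those of Pld4 and D2hgdh hold 3 and 8 CpG and 50% and 59.5% GC.

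Calls within the gene lists are to be read against the background of 33.4% lower and 1.26% higher, which depends in part on the read limit. Of 40 tumour suppressor promoters tested, 16 were lower in MEL cells, among them Rb1 (0 reads against 8 and 15), Runx1 (0 against 5 and 12) and Ikzf1 (2 against 4 and 27). Of 18 erythroid promoters, 7 were lower, among them the receptor gene Kit (3 against 6 and 19) and the mitochondrial iron transporter gene Slc25a37 (3 against 4 and 20). Of 30 oncogene promoters 9 were lower and 1, Ccnd3, was higher. Of 23 replication promoters 7 were lower, among them Pcna (1 against 5 and 11).

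The promoters with the most reads over their flanks were listed for each cell type among those with enough flank reads (6250 candidates for the MEL input and 2954 for the ES-EP inputs), and no difference between the lists was tested. Apart from a satellite-like gene, the MEL input was led by Mpnd (31 MEL reads, 28 and 86 in ES-EP), Pigyl (17, 7 and 20), the maintenance DNA methyltransferase gene Dnmt1 (17, 4 and 15) and the chaperone gene Hspa5 (14, 4 and 4). ES-EP was led by Btbd9 (11 MEL reads, 19 and 75 in ES-EP) and Mpnd, followed by Nfat5 (5, 14 and 44), a factor of the osmotic stress response, and Zc3h18 (5, 16 and 47). Mpnd was thus among the leading promoters of both. The next in MEL cells were Exoc8, Dazap2, Manba, Zfp706 and Ncbp2, and in ES-EP they were Dock8, Slc35e1, Vac14, Dnaja2 and the protein kinase A gene Prkaca. Of these ES-EP promoters, Nfat5, Zc3h18, Slc35e1, Vac14, Dnaja2 and Prkaca lie on chromosome 8, whose distal part stood high in the ES-EP libraries. Higher density there also brings more flank reads, so that such promoters reach the limit for this list more readily.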

How the data were processed

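Input DNA and PU.1 ChIP libraries of MEL cells and ES-EP were used. The authors used an Illumina GAII and ELAND with mm9 as the reference, and kept only reads with 1 place in the genome and no more than 2 mismatches. The ELAND version is not given in the sources used here. The files as deposited hold 1 aligned read per line (chromosome, start, strand and sequence) and no measured value, so that all counts were made from these lines. Reads on unplaced and mitochondrial sequence were left out.

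Bins of 1 Mb with at least 50% called bases and at least 500 input reads were kept, and 103 of 2482 were left out. Ratios used total reads. Pile-up windows of 10 kb held more than 5 times the median of the summed inputs. For the ChIP bins and the 100 kb regions, windows with more than 5 times the median of the summed ChIP reads counted as well. Segments came from an optimal partition of log2 ratios with a penalty of 2 times the squared MAD-based SD times the natural logarithm of the number of bins and at least 3 bins, a penalty set after looking at the data. Intervals are Clopper-Pearson. ChIP bins, with the libraries of a preparation summed, were tested with limma 3.58.1 in R 4.3.3 on log2(CPM + 0.5), two-sided, with Benjamini-Hochberg adjustment over all bins. The prior degrees of freedom were infinite, so that all bins share 1 standard error. The duplicate preparations are independent, per the study's methods, but each cell type is 1 line. That the letters mark the preparations was inferred from the library titles. Promoter reads were moved by 70 bp toward the fragment middle. Other tools were Python 3.11.15, numpy 2.4.6, pandas 2.3.3, scipy 1.17.1 and statsmodels 0.14.6 (the GC curves). The fits and the segmentation were also run on simulated data. The simulated inputs held counting noise only, and the segmentation there used another penalty, so that its setting here was not itself tested.

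Named genes are those of the cancer lists in segments past the fold, 7 fixed genes, genes in windows at 3-fold or more, the 10 promoters with the largest ratio on each side and the 10 with the most reads over flanks. The members, lists and limits were chosen with earlier results of these data known. Alternatives covered scaling, repeated positions, GC correction, pile-ups, bin size, folds, window size, read shift, start site choice, penalty and leaving out each replicate. The one without pile-up promoters and the 10 kb steps were added after seeing the data.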

Additional observations from a re-analysis of the deposited data

Results flagged for a closer look

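A pair of signals lay outside the autosomal bins. The X chromosome had 155,777 reads in the MEL input and 62,077 and 116,860 in the ES-EP inputs, a ratio of 1.52 (1.51 to 1.53), above every autosome. The Gata1 gene on the X chromosome had 40 exon and 75 intron reads in the MEL input, which is 3.58 (2.38 to 5.33) times as many per base in exons as in introns. The ES-EP inputs together had 2 exon and 35 intron reads, a value of 0.384 (0.0447 to 1.49). The 4 MEL ChIP libraries had 16, 22, 18 and 52 exon reads and 39, 58, 49 and 87 intron reads, and the 4 ES-EP ChIP libraries, which carry no fusion, had 7, 18, 3 and 11 exon reads and 21, 42, 14 and 37 intron reads. Esr1, the mouse gene of the receptor, was at 0.767 (0.349 to 1.47) in the MEL input and at 1.75 (1.23 to 2.40) in the ES-EP inputs. The species of the receptor domain in the fusion is not given in the sources used here, so that the Esr1 values do not count its reads where that species is another one.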

How the results depend on the processing

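Chromosomes 3, 8 and 15 kept their side of 1.2-fold under each alternative run, and median scaling added 1 more, for 4. Segments past the fold numbered 19 to 29 against 27. Bins past the fold in the inputs, 775, became 437 at a ratio of 1.3 and 1632 of 4748 with bins of 500 kb, and ranged from 870 to 1224 when 1 ES-EP input was left out. The 5 windows with a ratio below 0.1 against each ES-EP input became 24 at a ratio below 0.2 and 10 at 50 or more scaled reads. Promoters called, 2948, ranged from 789 without ES-EP input 2 to 3140 without ES-EP input 1, so that their number rests on the deeper ES-EP library. The limit of 10 reads covered only the libraries kept, so that the number tested changed too and these counts are not shares. The level of promoters over flanks in MEL cells relative to ES-EP, 0.459, became 0.528 with 1000 bp and 0.617 against windows of the same GC content (0.790 with promoters near pile-ups left out as well), and was 0.434 to 0.529 with 1 ES-EP input. Single promoters hold few reads at this depth.

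The 658 ChIP bins became 712 with the preparation letter as a replicate block (351 higher and 361 lower), and they ranged from 515 to 619 with 1 preparation left out, in which case the lone one is assumed to vary like the others. The deviations of preparation A from the mean of its cell type correlated at r = 0.181 between MEL cells and ES-EP over 2379 bins, with only 2 pairs, so that the letters were taken as names and not as a pairing.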
